A study of Mus musculus with 14 samples.

Results

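The comparison described here set mouse embryonic fibroblasts (MEFs) kept without glucose for 12 h against unstarved cells, over all genes of a bulk RNA sequencing count table. It rests on 4 of the 14 libraries of the series, 2 labelled glucose starvation 12 h and 2 labelled control at 0 h, taken by their labels. A gene with several transcript lines was represented by the line with the most reads over the 14 libraries. The other 10 libraries held glucose starvation for 3 h and 6 h and amino acid starvation for 3 h, 6 h and 12 h, again 2 of each. Those at 3 h and 6 h of glucose starvation and at 12 h of amino acid starvation served as further references.

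All cells were first plated in high glucose DMEM, a culture medium, with fetal bovine serum. The starved cells were washed and then held for 12 h in DMEM lacking glucose, with 10% dialyzed serum, from which small molecules have been removed. They were detached with trypsin and frozen in 10% DMSO with dialyzed serum. The control cells had no time in starvation medium and were frozen with ordinary serum. They are labelled 0 h, and the series holds no unstarved cells at 12 h. The loss of glucose, the added time, the change of medium and of serum and the freezing mixture cannot be told apart in this comparison. Amino acid starvation shared the wash, the dialyzed serum and the freezing mixture with glucose starvation. The strain, the passage and whether the cells were primary or immortalised are not given in the sources used here. Nothing in the labels makes the 2 libraries of each group independent cultures, and the p-values therefore measure a spread between libraries that may be technical.

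Fibroblasts import glucose through facilitative transporters of the GLUT family and break it down by glycolysis. They also turn part of it into UDP-N-acetylglucosamine and the dolichol-linked sugars that are added to proteins in the endoplasmic reticulum (ER). Unfolded proteins in the ER activate 3 sensors. ATF6 and IRE1, the latter through splicing of Xbp1, raise chaperones and degradation factors, and PERK phosphorylates the translation factor eIF2alpha, as the kinase GCN2 does when amino acids are short, which favours translation of the transcription factor ATF4. A separate glucose sensor, the transcription factor MondoA with its relative ChREBP, responds to glucose 6-phosphate and drives Txnip.

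The 2 control libraries held 43599405 and 43305344 reads and the 2 libraries at 12 h held 54990631 and 38448194. Levels are given as CPM, which puts the counts of all libraries on 1 scale by means of TMM (trimmed mean of M-values) factors. Of 14 fibroblast markers 12 were tested, of which 0 rose and 10 fell. Their summed level was 9792 and 8924 CPM in the controls and 6235 and 6479 CPM at 12 h. Thy1 was at 0 in all 4 libraries. Markers of macrophages summed to 18.6 to 22.3 CPM, with Ptprc, Adgre1, C1qa and C1qb at 0. The endothelial, epithelial, skeletal muscle, adipocyte and erythroid lists each stayed at or below 43.5 CPM in these 4 libraries. The neural list, with Sox2 and Dcx at 0, summed to 308 and 310.1 CPM in the controls and 157 and 154 CPM at 12 h. Most of this sum was Nes, at 231 and 234 CPM in the controls and 75.3 and 72.8 CPM at 12 h. Tubb3 went the other way, from 30.0 and 25.8 CPM to 46.0 and 47.6 CPM. Of the 5 neural markers tested 1 rose and 3 fell. Whether a change in cell makeup had a part in any result was not tested.

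After 12 h without glucose most of the genes tested differed from the control. Of 17696 genes tested, 10340 (58.4%) were called, meaning an adjusted p under 0.05 in edgeR's quasi-likelihood test with Benjamini-Hochberg adjustment. 5387 (30.4%) were higher and 4953 (28.0%) were lower. At least 2-fold changes were made by 3223 genes (18.2%), of which 1427 rose (8.06%) and 1796 fell (10.1%). The median log2 fold change over all genes tested was 0.0079. Counts of members of any gene list are read below against these shares, since a list in which 30.4% rose and 28.0% fell moved no more often than the genes at large. When libraries were scaled by their totals alone this median was -0.093 and the calls were 4443 higher and 5865 lower, so small changes depend on the scaling. Counting rules were not given, so reads shared with another gene cannot be told apart. This touches 59 of the 147 genes given with values below, whose exons overlap those of another annotated gene, namely Adpgk, Aldh1l2, Aldoa, Angptl6, Arntl, Atg14, Ccn2, Ccnd1, Cdc20, Cdkn1a, Ctsa, Ctsl, Cyp51, Ddit3, Dnajb9, Dnm3os, Dusp5, Elovl6, Fdps, Gabarapl1, Gadd45a, Gas1, Gnpnat1, Gys1, Has2, Hmgcs1, Hsp90b1, Hspa8, Impdh2, Irf1, Irs1, Lss, Map1lc3b, mt-Co1, Ncl, Ndrg1, Nop14, Pck2, Pdia4, Pgm3, Plk1, Pole, Ppp1r15a, Psph, Rgs16, Rpl13a, Rpl3, Shmt2, Slc2a1, Slc6a9, Sqstm1, Syvn1, Tagln, Tef, Thbs1, Tk1, Tkt, Txnip and Vcam1. In bulk RNA a lower level from fewer cells of a type and less RNA per cell cannot be told apart.

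**Figure D1:**
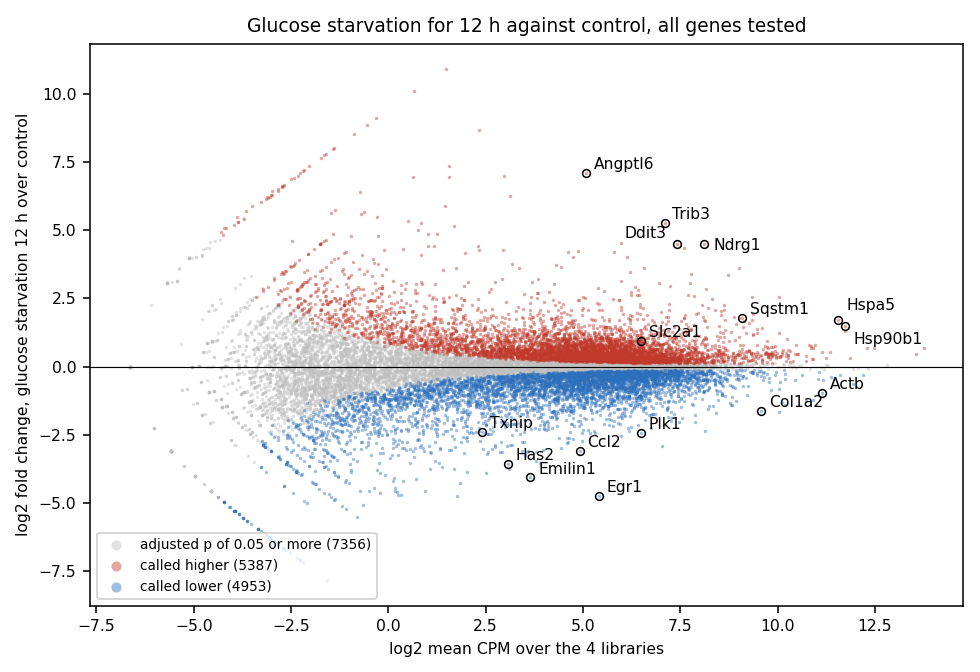
Log2 fold change of glucose starvation for 12 h over control (vertical axis) against the log2 mean CPM over the 4 libraries (horizontal axis), 1 point per gene tested. Red points were called higher (5387), blue points were called lower (4953) and grey points had an adjusted p of 0.05 or more. Among the named genes Angptl6 and Trib3 stand highest at 7.11 and 5.28, and Egr1 and Emilin1 lowest at -4.73 and -4.07.

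Most chaperones of the ER rose, and several of their promoters carry a known sequence. ATF6 binds, together with the CCAAT-binding factor NF-Y, to the ER stress response element (ERSE), here searched as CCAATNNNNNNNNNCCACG on both strands of the 300 bases around each start site in RefSeq (build GRCm38.p6, matched by gene symbol). The letters were in 39 of 32851 such promoters (0.119%), and in 8 of the 20 chaperone genes that had a promoter in the table. That list was drawn up from known targets, so its share is no independent measure. The matches of 6 genes that rose are shown with the CCAAT and CCACG parts in capitals, as their reverse complement where the match lies on the other strand.
Hspa5 promoter, chr2:34772005-34772063, plus strand: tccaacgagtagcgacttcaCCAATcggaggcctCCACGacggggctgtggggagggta
Hsp90b1 promoter, chr10:86705513-86705676, minus strand: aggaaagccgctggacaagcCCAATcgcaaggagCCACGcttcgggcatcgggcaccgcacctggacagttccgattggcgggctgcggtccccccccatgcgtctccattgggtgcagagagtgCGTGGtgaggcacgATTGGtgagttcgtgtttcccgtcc
Pdia6 promoter, chr12:17266471-17266529, plus strand: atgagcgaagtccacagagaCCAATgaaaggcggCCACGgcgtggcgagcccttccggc
Dnajc3 promoter, chr14:118937807-118937865, plus strand: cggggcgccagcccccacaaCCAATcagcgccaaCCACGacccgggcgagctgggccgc
Creld2 promoter, chr15:88819500-88819558, plus strand: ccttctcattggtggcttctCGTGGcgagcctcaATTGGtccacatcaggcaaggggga
Syvn1 promoter, chr19:6046512-6046570, plus strand: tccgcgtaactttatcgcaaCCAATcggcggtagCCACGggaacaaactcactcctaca
Taken by the letters alone, without regard to any list, 19 tested genes held the element, of which 12 rose and 2 fell (63.2% and 10.5%), against 33.0% and 29.8% of the 11679 tested genes with a promoter. The 7 of them outside the 39 lists counted 2 higher and 1 lower. A match of letters is a description and shows no binding.

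Of the 23 chaperones and other ATF6 and XBP1 targets tested, 20 rose and 1 fell, with a median log2 fold change of 1.18. Hspa5, the ER chaperone BiP, was at 1413 and 1424 CPM in the controls and at 4614 and 4649 CPM at 12 h. The 2 groups were far apart and their libraries close together, and Hspa5 rose by 1.71 on the log2 scale (SE 0.053, edgeR adjusted p = 3.28e-21). Hsp90b1, the ER form of the chaperone HSP90, went from 1742 and 1869 CPM to 5068 and 4990.5 CPM, a log2 fold change of 1.48 (SE 0.055). Pdia4, a disulfide isomerase that helps proteins fold, went from 302 and 307 CPM to 991 and 982 CPM (1.70, SE 0.052). Sdf2l1, a cofactor of BiP, went from 32.8 and 27.6 CPM to 140.1 and 154 CPM (2.28, SE 0.083). Dnajb9, a BiP co-chaperone, stood at 8.0 and 10.4 CPM against 50.4 and 49.6 CPM, 2.44 higher on the log2 scale (SE 0.097). No library of one group reached the range of the other in any of these genes. The share of all genes tested whose libraries do not overlap was not counted. Such statements, here and below, therefore describe the values and add no support to the test. Xbp1, whose spliced form is the transcription factor made on IRE1 activity, changed less, from 64.4 and 66.5 CPM to 83.1 and 85.3 CPM (0.36, SE 0.067, edgeR adjusted p = 3.27e-05). The counts do not separate spliced from unspliced Xbp1.

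Most of the machinery that takes misfolded proteins out of the ER rose too. Of the 16 ER-associated degradation genes tested, 13 rose and 0 fell (median 0.58). Herpud1, a membrane protein of the degradation complex, was at 76.4 and 73.8 CPM in the controls and at 762 and 773 CPM after 12 h, a change of 3.35 (SE 0.057, edgeR adjusted p = 3.53e-27). Sel1l, the partner of the ubiquitin ligase HRD1, and Syvn1, which encodes that ligase, rose by 1.94 (SE 0.054) and 1.46 (SE 0.058). Edem1, which directs glycoproteins to degradation, rose by 1.19 (SE 0.056).

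Enzymes that make sugar donors for glycoproteins were mostly higher. Of the 36 genes of the hexosamine pathway and N-glycosylation tested, 23 rose and 5 fell (median 0.33). Gfpt1, which commits fructose 6-phosphate to the hexosamine pathway, was at 105 and 103 CPM in the controls and at 159 and 154 CPM at 12 h (0.59, SE 0.060, edgeR adjusted p = 1.16e-09). Gnpnat1 and Pgm3, later enzymes of the same pathway, rose by 1.45 (SE 0.085) and 1.08 (SE 0.091). Alg5 and Alg2, which act on the dolichol-linked sugars, rose by 0.98 (SE 0.072) and 1.02 (SE 0.081).

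All 29 tested targets of ATF4 and of CHOP, the transcription factor encoded by Ddit3, rose, with the highest median of the 39 lists (2.44). ATF4 with its partners binds the element searched here as TGATGNAA on both strands. It was in 1304 of 32851 promoters (3.97%) and in 9 of the 23 list members that had one. Of all tested genes with a promoter 2.85% held it. This list too was drawn up from known targets, so its share is no independent measure. The matches of 4 genes are shown with the fixed letters of the element in capitals, as their reverse complement where the match lies on the other strand.
Asns promoter, chr6:7693210-7693252, minus strand: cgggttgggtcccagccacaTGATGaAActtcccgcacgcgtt
Chac1 promoter, chr2:119351029-119351076, plus strand: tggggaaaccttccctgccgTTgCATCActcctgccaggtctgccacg
Atf3 promoter, chr1:191183416-191183463, minus strand: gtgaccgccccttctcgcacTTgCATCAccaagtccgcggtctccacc
Slc7a11 promoter, chr3:50443633-50443699, minus strand: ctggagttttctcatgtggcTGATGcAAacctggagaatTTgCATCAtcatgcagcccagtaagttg
Taken by the letters alone the element marked 333 tested genes, of which 37.8% rose and 25.2% fell, close to the 33.0% and 29.8% of all tested genes with a promoter. Outside the lists the shares were 33.9% and 26.0% of 304 genes.

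Atf4 itself went from 304 and 314 CPM to 909 and 947 CPM (1.59, SE 0.054, edgeR adjusted p = 2.32e-20). Ddit3 was at 15.8 and 12.7 CPM in the controls and at 317 and 334 CPM after starvation. This is a rise of 4.52 on the log2 scale (SE 0.085), the third highest by the rule for the largest changes, with no overlap between the groups. Trib3, a pseudokinase that holds back ATF4 and CHOP, went from 7.70 and 6.07 CPM to 259 and 275 CPM (5.28, SE 0.080). Atf3, a further transcription factor of the same response, went from 8.46 and 7.84 CPM to 131 and 133 CPM (4.02, SE 0.074). Ppp1r15a, the regulatory subunit that directs a phosphatase to eIF2alpha, went from 40.0 and 35.2 CPM to 399 and 396 CPM (3.40, SE 0.063). The list thus rose both in factors of the response and in genes known to limit it. Sesn2, a stress-induced inhibitor of mTORC1, rose by 2.09 (SE 0.066).

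Genes of amino acid supply were mostly higher. Of the 18 amino acid transporters tested, 13 rose and 2 fell (median 0.81). Slc6a9, a glycine transporter, went from 18.4 and 17.8 CPM to 369 and 368 CPM (4.35, SE 0.065). Slc3a2 and Slc7a5, the heavy and light chain of a carrier of large neutral amino acids, rose by 2.54 (SE 0.055) and 1.78 (SE 0.054), and Slc7a1, a carrier of cationic amino acids, by 2.14 (SE 0.061). Asns, asparagine synthetase, was at 97.1 and 99.4 CPM in the controls and at 539 and 545 CPM at 12 h (2.46, SE 0.055, edgeR adjusted p = 1.06e-24). Cth, which makes cysteine from cystathionine, went from 2.88 and 3.33 CPM to 51.0 and 50.4 CPM (4.03, SE 0.11). Asns and Cth were many times their control level in both libraries at 12 h. Of 20 cytosolic aminoacyl-tRNA synthetases tested, which load tRNAs with amino acids, 17 rose and 0 fell (median 1.15), with Tars at 1.84, Sars at 1.71, Nars at 1.66 and Gars at 1.57.

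Serine and one-carbon synthesis was higher too, with 11 of 12 genes higher and 1 lower (median 1.40). Mthfd2, a mitochondrial folate enzyme, went from 91.9 and 91.9 CPM to 437 and 448 CPM (2.27, SE 0.054). Psph, which releases serine from phosphoserine, and Shmt2, which splits serine in mitochondria, rose by 2.07 (SE 0.056) and 1.93 (SE 0.055). Aldh1l2, a mitochondrial 10-formyltetrahydrofolate dehydrogenase, went from 76.3 and 77.3 CPM to 980.3 and 918 CPM and was 3.63 higher on the log2 scale (SE 0.064). Its 2 groups were wide apart.

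**Figure D2:**
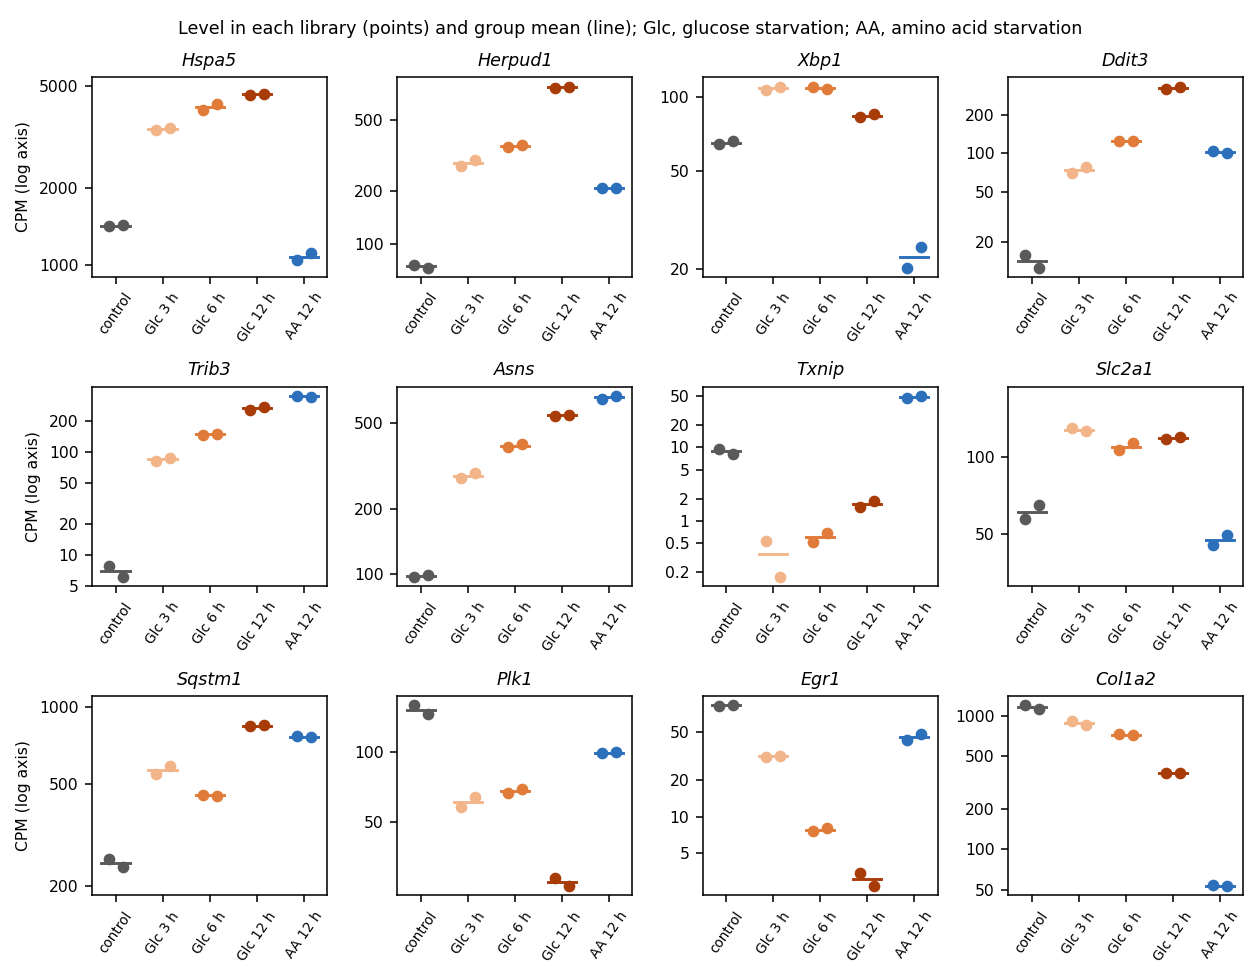
Level of 12 genes in each library (points) with the group mean (line), in CPM on a log axis, for the control, glucose starvation (Glc) for 3 h, 6 h and 12 h and amino acid starvation (AA) for 12 h. Herpud1, Ddit3, Trib3 and Asns climb from the control to 12 h of glucose starvation, Egr1 and Col1a2 fall, and Txnip stands below the control at every time without glucose and above it without amino acids.

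Genes known to be driven by MondoA and ChREBP were mostly lower. Of 12 tested, 1 rose and 8 fell (median -0.40). Txnip, an arrestin-like protein that restrains glucose uptake, is shown with the 2 similar boxes of a carbohydrate response element in its promoter, the fixed letters in capitals.
Txnip promoter, chr3:96557852-96557908, plus strand: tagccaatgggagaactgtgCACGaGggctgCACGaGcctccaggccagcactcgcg
That element, searched as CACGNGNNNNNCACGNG on both strands, was in 16 of 32851 promoters. It was in 1 of the 9 members of this list that had a promoter, namely Txnip. Of the 10 tested genes that held it, 3 rose and 5 fell, against 33.0% and 29.8% of all tested genes with a promoter. Outside the lists 2 rose and 4 fell of 7 genes. These genes are too few for a conclusion from their shares. Txnip was at 9.60 and 8.28 CPM in the controls and at 1.56 and 1.86 CPM at 12 h, lower in both starved libraries, with a log2 fold change of -2.40 (SE 0.16, edgeR adjusted p = 2.83e-13). Arrdc4, its close relative and another MondoA target, was low throughout, at 1.05 and 0.898 CPM against 0.854 and 1.01 CPM, and did not pass the test (edgeR adjusted p = 0.878, log2 fold change -0.070, SE 0.34). Rgs16, a regulator of G protein signalling, and Pdk4, a kinase that blocks pyruvate dehydrogenase, stood at -2.40 (SE 0.15) and -1.46 (SE 0.12), both called lower.

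Of 14 glucose and monocarboxylate transporters tested, 8 rose and 1 fell (median 0.64). Among the 10 of them that overlap no other gene 4 rose and 1 fell, with a median of 0.28. Slc2a1, the main glucose transporter GLUT1, was at 57.0 and 64.9 CPM in the controls and at 117 and 119 CPM at 12 h, a rise of 0.95 (SE 0.067, edgeR adjusted p = 5.03e-13). Slc2a6 and Slc2a8, transporters of the same family found on inner membranes, rose by 2.06 (SE 0.13) and 1.37 (SE 0.13). Slc16a1, the lactate and pyruvate carrier MCT1, rose by 1.14 (SE 0.057).

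Glycolysis did not move as a block. Of 23 genes 9 rose and 9 fell, a median of 0.092 that turned to -0.013 when libraries were scaled by their totals alone (6 higher and 10 lower). Hk2, a hexokinase, went from 45.6 and 41.2 CPM to 59.3 and 58.1 CPM (0.44, SE 0.065, edgeR adjusted p = 1.40e-06). Adpgk, an ADP-dependent glucokinase, Pfkl, a phosphofructokinase, and Aldoa, an aldolase, rose by 1.32, 0.64 and 0.58 (SE 0.058, 0.068 and 0.056). Eno3, the muscle enolase, fell by 0.84 on the log2 scale (SE 0.079). In the pentose phosphate pathway 5 of 11 genes rose and 4 fell, with the transketolase Tkt at 0.39 and H6pd, the ER form of glucose 6-phosphate dehydrogenase, at -1.01.

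Of 14 tested genes of glycogen metabolism and gluconeogenesis 5 rose and 4 fell. The median of 0.074 turned to -0.031 when libraries were scaled by their totals alone, and to -0.024 in the 10 genes that overlap no other (2 higher and 3 lower). The list held large rises in single genes. Pck2, the mitochondrial phosphoenolpyruvate carboxykinase, was at 75.5 and 65.2 CPM in the controls and at 493 and 516 CPM at 12 h (2.84, SE 0.064, edgeR adjusted p = 1.59e-24). Stbd1, a membrane protein that binds glycogen, went from 13.5 and 12.1 CPM to 111 and 114 CPM (3.14, SE 0.074). Neither gene had a starved library near the control range. Gys1, glycogen synthase, rose by 0.92 (SE 0.067). The tricarboxylic acid cycle and pyruvate dehydrogenase list had 11 of 29 genes higher and 4 lower, against 5 and 10 with library totals. Pdk1, another kinase that blocks pyruvate dehydrogenase, went from 9.86 and 10.1 CPM to 43.5 and 40.7 CPM (2.08, SE 0.10), the opposite of Pdk4.

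Cholesterol synthesis was higher in most of its steps. Of 25 genes 18 rose and 3 fell (median 0.51). Lss, which closes the sterol ring, went from 65.9 and 60.0 CPM to 195 and 199.6 CPM (1.65, SE 0.064). Msmo1, Fdps and Cyp51, which act before and after it, rose by 1.17, 1.13 and 0.95 (SE 0.065, 0.058 and 0.056). Hmgcs1, which makes HMG-CoA at the start of the pathway, went the other way from 109 and 114 CPM to 101 and 97.8 CPM (-0.17, SE 0.059, edgeR adjusted p = 0.0164). This small difference was no longer called without the second control library (-0.13) or without the second library at 12 h (-0.14).

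Fatty acid synthesis counted 4 of 17 genes higher and 5 lower, or 3 and 2 of the 10 that overlap no other gene. Acly, which makes cytosolic acetyl-CoA, rose by 0.60 (SE 0.055), while Elovl6, an elongase, fell by 1.25 on the log2 scale (SE 0.074). Of 27 genes of fatty acid oxidation 5 rose and 12 fell (median -0.13). Cpt1a, which admits fatty acids to mitochondria, went from 78.2 and 70.3 CPM to 58.7 and 54.1 CPM (-0.40, SE 0.064, edgeR adjusted p = 4.88e-06). Acot2, a mitochondrial acyl-CoA thioesterase, went from 2.57 and 3.24 CPM to 54.2 and 56.1 CPM (4.24, SE 0.097). Acot2 has a near-identical neighbour, Acot1, which rose by 4.18, and reads could have been split between them.

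The series was titled for autophagy, in which cells enclose and digest their own content in lysosomes. Of 47 autophagy genes tested 33 rose and 5 fell (median 0.32). Sqstm1, the cargo receptor p62, was at 256 and 238 CPM in the controls and at 843 and 853 CPM at 12 h, a rise of 1.78 (SE 0.054, edgeR adjusted p = 1.60e-21). Atg13 and Atg14, parts of the kinase complexes that start the process, rose by 1.48 (SE 0.072) and 1.63 (SE 0.089), and Atg12, a ubiquitin-like conjugation factor, by 1.43 (SE 0.078). Gabarapl1 and Map1lc3b, 2 members of the family that coats the membrane, went from 35.9 and 30.3 CPM to 54.9 and 59.5 CPM and from 106 and 107 CPM to 136 and 134 CPM. Both rose, by 0.79 (SE 0.072) and 0.34 (SE 0.060). Ulk1, the starting kinase, was at 49.2 and 48.7 CPM against 50.2 and 49.8 CPM, with all 4 libraries close together (log2 fold change 0.031, SE 0.074, edgeR adjusted p = 0.742). These are RNA levels and no measure of autophagic flux.

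Lysosomal genes were mostly higher, 37 of 46 higher and 4 lower (median 0.57). Flcn, folliculin, which controls nutrient signalling at the lysosome, went from 51.3 and 51.0 CPM to 204 and 209.9 CPM (2.02, SE 0.063). Mcoln1, a lysosomal cation channel, and the proteases Ctsa and Ctsl rose by 1.60, 1.13 and 0.88 (SE 0.063, 0.057 and 0.054). Among 27 genes of AMPK, mTORC1 and their regulators 9 rose and 12 fell, or 7 and 6 of the 18 that overlap no other gene. In this list, Ddit4 and Eif4ebp1, inhibitors of mTORC1 and of cap-dependent translation, rose by 2.44 (SE 0.078) and 1.80 (SE 0.068), and Eif4ebp2 fell by 1.25 on the log2 scale (SE 0.053). Targets of FOXO, a factor restrained by insulin signalling, counted 5 higher and 9 lower of 21, or 5 and 5 of the 14 that overlap no other gene, with Klhl24 at 2.46 and Irs1, the insulin receptor substrate, at -2.76.

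**Figure D3:**
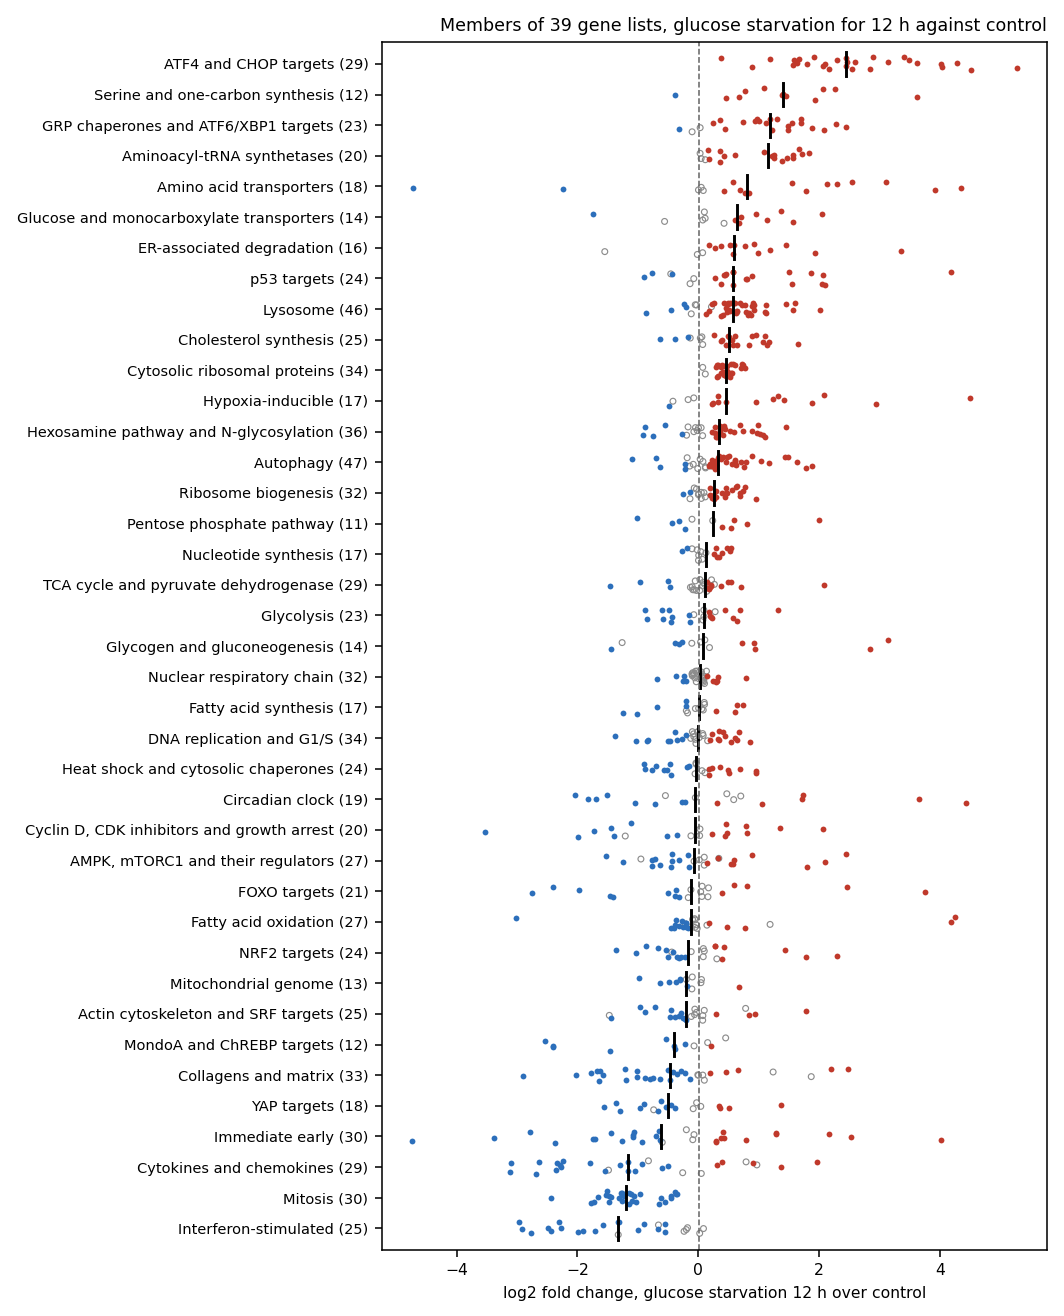
Log2 fold change of glucose starvation for 12 h over control for the tested members of 39 gene lists (number tested in brackets), with red points called higher, blue points called lower and open grey points not called. Black bars are list medians and the dashed line is the median of all genes tested (0.0079). The ATF4 and CHOP targets lie highest, with a median of 2.44, and the interferon-stimulated and mitosis lists lowest, with medians of -1.32 and -1.19.

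Genes of mitosis were lower throughout. All 30 tested mitotic genes fell (median -1.19). Plk1, a mitotic kinase, was at 158 and 145 CPM in the controls and at 29.0 and 26.7 CPM at 12 h, a log2 fold change of -2.44 (SE 0.067, edgeR adjusted p = 1.63e-22). Aurka, another mitotic kinase, went from 99.98 and 107 CPM to 29.3 and 30.9 CPM (-1.78, SE 0.064). Ccnb1, cyclin B1, and Cdc20, which activates the anaphase-promoting complex, fell by 1.53 and 1.51 on the log2 scale (SE 0.056 and 0.056). The starved libraries of all 4 genes lay below both controls. DNA replication genes were split, with 12 higher and 10 lower of 34 (median -0.010), close to the shares of all genes, and with 10 higher and 16 lower (median -0.12) when libraries were scaled by their totals alone. E2f1, a transcription factor of S phase entry, and Pole, a DNA polymerase, rose by 0.86 (SE 0.067) and 0.63 (SE 0.057). Tk1 and Rrm2, which supply nucleotides, fell by 1.38 and 0.84 on the log2 scale (SE 0.062 and 0.052).

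Among regulators of G1, cyclin D1 fell and the inhibitor p21 rose. Ccnd1, which encodes cyclin D1, was at 254 and 246 CPM in the controls and at 77.0 and 74.1 CPM at 12 h (-1.73, SE 0.059, edgeR adjusted p = 2.81e-20). Cdkn1a, which encodes p21, went from 24.6 and 23.9 CPM to 102 and 99.9 CPM (2.06, SE 0.058). Gadd45a, a stress and p53 target, went from 5.95 and 5.67 CPM to 107 and 105 CPM (4.19, SE 0.081). Against this, Gas1, a growth arrest gene, was among the largest falls (-3.53, SE 0.14), and the whole list of cyclin D, CDK inhibitors and growth arrest genes was split, 8 higher and 8 lower of 20. Of 24 p53 targets tested 18 rose and 3 fell (median 0.58), among them Trp53inp1, a stress protein that also acts in autophagy, at 1.86 (SE 0.11).

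Immediate early genes, which respond to growth factors within minutes, were split. Of 30 tested 11 rose and 15 fell (median -0.62). Egr1, a zinc finger factor of this class, was at 82.1 and 82.6 CPM in the controls and at 3.42 and 2.66 CPM at 12 h, the largest fall by the rule (-4.73, SE 0.085, edgeR adjusted p = 8.42e-27). Klf4, another zinc finger factor, rose by 2.53 (SE 0.072), and Dusp5, a phosphatase of ERK, fell by 1.75 on the log2 scale (SE 0.080). Myc, a growth factor-induced transcription factor, went from 112 and 98.6 CPM to 129.9 and 127 CPM (0.29, SE 0.057, edgeR adjusted p = 8.57e-05).

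Inflammatory genes were mostly lower. Of 29 cytokine and chemokine genes tested 5 rose and 18 fell (median -1.16). Ccl2, which attracts monocytes, was at 51.4 and 56.2 CPM in the controls and at 5.81 and 6.88 CPM at 12 h (-3.10, SE 0.086). Csf1, a macrophage growth factor, went from 363 and 364 CPM to 101 and 109 CPM (-1.79, SE 0.055). Both fell several-fold without overlap. Tnfaip3, a feedback inhibitor of NF-kappaB, and Vcam1, an adhesion molecule, fell by 2.64 and 2.34 on the log2 scale (SE 0.075 and 0.091). Interferon-stimulated genes had the lowest median of the lists (-1.32), with 0 of 25 higher and 18 lower. Ifih1, a sensor of double-stranded RNA, went from 14.3 and 14.8 CPM to 1.71 and 2.18 CPM (-2.92, SE 0.16). Ddx58, the sensor RIG-I, and Irf1, an interferon regulatory factor, fell by 1.70 and 1.91 on the log2 scale (SE 0.095 and 0.087).

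Genes of the extracellular matrix were mostly lower. Of 33 collagen and matrix genes tested 5 rose and 22 fell (median -0.47). Col1a2, a chain of type I collagen, was at 1192 and 1118 CPM in the controls and at 373 and 373 CPM at 12 h (-1.63, SE 0.053, edgeR adjusted p = 9.56e-21). Col1a1, the other chain, went from 2486 and 2219 CPM to 989.6 and 1032 CPM (-1.22, SE 0.057). Both chains were lower in both starved libraries. Col6a1, Thbs1, which encodes thrombospondin, and Mmp14, a membrane protease, fell by 2.02, 2.91 and 1.77 on the log2 scale (SE 0.059, 0.075 and 0.059).

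Genes of actin and of its regulator SRF counted 4 higher and 12 lower of 25 (median -0.20). Actb, cytoplasmic actin, went from 3003 and 2979 CPM to 1551 and 1524 CPM (-0.96, SE 0.050), whereas the smooth muscle genes Acta2 and Tagln rose by 0.94 (SE 0.067) and 0.84 (SE 0.058). Actb is often used to normalise measurements, and here it was lower in both starved libraries. Targets of YAP, a factor that reads cell tension, counted 4 higher and 10 lower of 18. Ankrd1, Ccn1 and Ccn2 fell by 1.56, 1.36 and 1.30 on the log2 scale (SE 0.061, 0.053 and 0.059), and Ptgs2, cyclooxygenase 2, rose by 1.36 (SE 0.064).

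Hypoxia-inducible genes were mostly higher, 13 of 17 with 1 lower (median 0.45), although no change of oxygen is in the labels. The 7 of them that overlap no other gene had a median of 1.25, with 5 higher and 1 lower. Vegfa, a vascular growth factor, went from 34.7 and 35.1 CPM to 271 and 266 CPM (2.94, SE 0.058, edgeR adjusted p = 5.76e-26). Ndrg1, a stress-induced gene, went from 23.6 and 22.8 CPM to 514 and 534 CPM (4.49, SE 0.061). P4ha1, which hydroxylates collagen, and Kdm3a, a histone demethylase, rose by 1.24 (SE 0.058) and 1.32 (SE 0.063). Targets of NRF2, the factor of oxidative stress, were split, 7 higher and 11 lower of 24. Hmox1, heme oxygenase, Slc7a11, the cystine carrier, and Gclc, of glutathione synthesis, rose by 1.78, 2.30 and 1.43 (SE 0.055, 0.095 and 0.056), and Gstp1, a glutathione transferase, fell by 0.86 on the log2 scale (SE 0.062). Cytosolic heat shock genes were split, with 9 higher and 10 lower of 24. Hspa8, the constitutive HSP70, stood at 0.68 (SE 0.050), and Hsph1, Bag3 and Hspa4, its partners and relatives, at -0.88, -0.76 and -0.57.

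Ribosomal protein genes moved little but together. Of 34 tested 32 rose and 0 fell (median 0.46). Rpl3 went from 1345 and 1271 CPM to 2211 and 2282 CPM (0.78, SE 0.054), and Rpl13a from 745 and 731 CPM to 1193 and 1272 CPM (0.74, SE 0.060). Several of these genes have processed copies in the genome, so their counts are uncertain. Ribosome biogenesis counted 21 higher and 2 lower of 32 (median 0.27), with the nucleolar proteins Ncl at 0.69 and Nop14 at 0.95. Of 32 respiratory chain genes of the nucleus 7 rose and 5 fell (median 0.036), which became 4 and 13 (median -0.070) when libraries were scaled by their totals alone. Of the 13 protein-coding genes of the mitochondrial genome 1 rose and 7 fell (median -0.20), and of the 3 that overlap no other gene 0 and 2 (median -0.63). The gene that rose was mt-Co1, a subunit of cytochrome oxidase, at 0.67, and mt-Cytb, of complex III, fell by 0.64 on the log2 scale. Mitochondrial genes took 4.93% and 5.89% of all reads in the controls and 5.20% and 5.14% at 12 h, which lies between the controls. Nucleotide synthesis had 8 of 17 genes higher and 2 lower, with Impdh2, of guanine nucleotide synthesis, at 0.47. Circadian clock genes were split, 6 higher and 8 lower of 19, with Ciart, a clock repressor, at 3.66 (SE 0.11), the activator Arntl at 1.73 (SE 0.081) and the output factor Tef at -1.70 (SE 0.080).

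By the rule for the largest changes the highest gene was Angptl6, an angiopoietin-like secreted protein, at 0.589 and 0.372 CPM in the controls and 69.1 and 64.7 CPM at 12 h (7.11, SE 0.15). After Trib3, Ddit3, Ndrg1, Slc6a9, Acot2, Gadd45a, Cth and Atf3, described above, came Extl1, a glycosyltransferase, at 3.77, Ciart and Aldh1l2. Of the 12 highest genes 5 are in the list of ATF4 and CHOP targets (Trib3, Ddit3, Cth, Atf3 and Aldh1l2). That list held 29 of the 17696 genes tested. It was drawn up from known targets, with earlier results of these data known, so this count is no independent measure. The lowest after Egr1 were Emilin1, a glycoprotein of elastic fibres, at 25.8 and 21.5 CPM against 1.26 and 1.59 CPM (-4.07, SE 0.23), and Synpo, an actin-binding protein, at -3.76. Has2, which makes hyaluronan, stood at -3.58 (SE 0.14), and Pdgfb, a platelet-derived growth factor, at -3.25. Dnm3os, a noncoding RNA antisense to Dnm3, was at -3.11 and cannot be told apart from Dnm3 where counting ignores strand.

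The levels at 12 h were next set against 6 h and 3 h of the same starvation, which shared its medium, serum and freezing mixture. These differences leave the control levels out, though the spread was estimated over all 14 libraries. Against 6 h, 8412 genes (47.5%) were called, 4538 (25.6%) higher and 3874 (21.9%) lower, and against 3 h 10143 (57.3%), with 5631 (31.8%) higher and 4512 (25.5%) lower. Most ER chaperones were higher still, 18 of 23 higher than at 6 h and 2 lower (median 0.48). Hsp90b1, at 2561 and 2583 CPM at 3 h and 3256 and 3397 CPM at 6 h, gained 0.60 from 6 h to 12 h (SE 0.054, edgeR adjusted p = 2.36e-10). Herpud1, at 277 and 299 CPM and 353 and 362 CPM at these times, gained 1.10 (SE 0.052), and both libraries at 12 h lay above all earlier ones. Xbp1 did the reverse, at 107 and 111 CPM at 3 h, 109.8 and 108 CPM at 6 h and 83.1 and 85.3 CPM at 12 h, a log2 difference of -0.37 from 6 h (SE 0.067, edgeR adjusted p = 3.09e-05).

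Of the ATF4 and CHOP targets 20 of 29 were higher at 12 h than at 6 h and 1 lower (median 0.63). Atf4 had reached 815 and 860.0 CPM at 3 h and 994 and 1027 CPM at 6 h and lay at the threshold between 6 h and 12 h (log2 difference -0.12, SE 0.052, edgeR adjusted p = 0.0525, and 0.00751 with DESeq2). Ddit3, at 70.1 and 78.5 CPM and 124 and 125 CPM, gained 1.39 (SE 0.071). Ppp1r15a, at 109 and 109 CPM and 136 and 140.3 CPM, gained 1.53 (SE 0.057). Autophagy and lysosomal genes were higher at 12 h than at 6 h in 26 of 47 and 33 of 46, and lower in 3 and 3. Sqstm1 was at 551 and 588 CPM at 3 h and 454 and 451 CPM at 6 h before it reached its 12 h level (0.91 over 6 h, SE 0.053). Atg13 and Atg14, at 31.4 and 28.5 CPM and 15.3 and 16.4 CPM at 6 h, gained 1.17 and 1.31 (SE 0.072 and 0.088). Ulk1 was at 34.4 and 29.6 CPM at 3 h and 29.2 and 28.9 CPM at 6 h, below both 12 h libraries (0.79 over 6 h, SE 0.077).

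Several genes of the matrix, of actin and of YAP signalling stood higher at 3 h than at 12 h. Ccn2 was at 1753 and 1885 CPM at 3 h, 419.9 and 428 CPM at 6 h and 80.0 and 77.4 CPM at 12 h, against 204 and 184 CPM in the controls. Thbs1 was at 807 and 722 CPM at 3 h and 204 and 206 CPM at 6 h and fell by 4.63 on the log2 scale from 3 h to 12 h (SE 0.079, edgeR adjusted p = 1.46e-26). Has2, at 101 and 88.6 CPM at 3 h and 1.21 and 1.41 CPM at 12 h, showed the largest fall from 3 h by the rule (-6.19, SE 0.13). Actb took the same course, at 4589.6 and 4608 CPM at 3 h and 4378 and 4302 CPM at 6 h, above the controls, before the lower 12 h level. By list, 21 of 29 cytokine genes, 25 of 30 immediate early genes and 27 of 33 matrix genes were lower at 12 h than at 3 h, with 0, 4 and 0 higher. Matrix genes were also lower than at 6 h (27 lower and 0 higher), and so were YAP targets (14 lower and 1 higher of 18). Genes of glucose uptake took other courses. Slc2a1 was at 129.7 and 126 CPM at 3 h and 106 and 113 CPM at 6 h, and its difference between 12 h and 6 h was not called (0.11, SE 0.066, edgeR adjusted p = 0.174). Hk2 was at 174 and 166 CPM at 3 h and 114 and 116 CPM at 6 h, and was lower at 12 h (-1.53 against 3 h, SE 0.064). Txnip was lowest early, at 0.542 and 0.173 CPM at 3 h and 0.518 and 0.693 CPM at 6 h, and had risen again by 1.46 from 6 h to 12 h (SE 0.27, edgeR adjusted p = 4.58e-05).

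Of the 18 cholesterol genes higher at 12 h than in the control 10 were lower than at 6 h and 3 higher, and of the 21 such ribosome biogenesis genes 12 were lower and 2 higher. Of all 25 cholesterol genes 3 were higher and 16 lower at 12 h than at 6 h (median -0.36). Hmgcs1, lower than the control at 12 h, was at 130.0 and 116 CPM at 3 h and 241 and 248 CPM at 6 h and fell by 1.30 on the log2 scale to 12 h (SE 0.059). Msmo1, higher than the control, was at 369.5 and 388 CPM at 6 h and 276 and 277 CPM at 12 h. Of all 32 ribosome biogenesis genes 2 were higher and 21 lower than at 6 h, whereas 31 of 34 ribosomal protein genes were higher and 0 lower. Of 34 replication genes 24 were higher and 3 lower than at 6 h, while 3 of 30 mitotic genes were higher and 24 lower. Trp53inp1, at 5.18 and 4.62 CPM, 6.21 and 5.97 CPM and 32.0 and 31.6 CPM at 3 h, 6 h and 12 h, was among the largest gains from 6 h by the rule (2.39, SE 0.12). Hap1, huntingtin-associated protein 1, was another (2.34, SE 0.10).

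Glucose and amino acid starvation at 12 h were compared directly, which tests whether the change over the shared control differs. 11343 genes (64.1%) were called, 5585 (31.6%) higher without glucose and 5758 (32.5%) lower. When libraries were scaled by their totals alone the split was 4036 higher and 7646 lower and the median of all genes -0.27, against -0.028 with TMM, so list counts in this comparison move with the scaling and are given with both where the direction turns. ER chaperones had the highest median of the lists, 21 of 23 higher and 2 lower without glucose (median 1.88). Hspa5 was at 1041 and 1108 CPM without amino acids, below both controls, and at 4614 and 4649 CPM without glucose (2.11, SE 0.054, edgeR adjusted p = 2.35e-23). Pdia4 was at 84.8 and 84.7 CPM without amino acids (3.54, SE 0.056), and Sdf2l1 at 14.9 and 15.6 CPM (3.27, SE 0.087). Each was several-fold higher in both glucose-starved libraries.

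The ATF4 and CHOP targets, all higher than the control without glucose, did not differ in 1 direction between the starvations, with 14 higher and 7 lower of 29. Their median of 0.15 turned to -0.090 with library totals. Ddit3, at 104 and 99.9 CPM without amino acids, and Atf3, at 43.0 and 46.3 CPM, were higher without glucose by 1.68 (SE 0.071) and 1.57 (SE 0.062). Trib3, at 352 and 345 CPM, and Asns, at 643 and 664 CPM, were higher without amino acids, with log2 differences of -0.39 (SE 0.060) and -0.27 (SE 0.051). Atf4, at 852 and 888 CPM without amino acids, was not called (log2 difference 0.093, SE 0.052, edgeR adjusted p = 0.120). It was called lower without glucose when scaled by library totals (-0.14, edgeR adjusted p = 0.0129), and higher when the fit held only the groups compared (0.12, edgeR adjusted p = 0.0442) or lacked the second amino acid-starved library (0.15, edgeR adjusted p = 0.0471). Txnip was at 47.1 and 50.3 CPM without amino acids and 1.56 and 1.86 CPM without glucose (-4.85, SE 0.15), on either side of the controls. The MondoA and ChREBP targets as a list were split, with 6 higher and 6 lower of 12 (median -0.022). With library totals these counts were 5 and 6 (median -0.26). Slc2a1 was at 45.1 and 49.6 CPM without amino acids (1.32, SE 0.068).

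Autophagy genes were split between the starvations, 15 higher without glucose and 18 lower of 47, near the shares of all genes, and 7 and 28 with library totals. Ulk1, at 102 and 90.4 CPM without amino acids, and Map1lc3b, at 205 and 189.7 CPM, were lower without glucose (-0.94, SE 0.073, and -0.55, SE 0.059). Sqstm1, at 773 and 762 CPM without amino acids, differed by 0.14 (SE 0.052, edgeR adjusted p = 0.0176), a difference that turned to -0.095 with library totals. It was no longer called without the first (0.15) or the second (0.14) glucose-starved library. Atg13, at 63.2 and 65.2 CPM, was not called (0.068, SE 0.068, edgeR adjusted p = 0.392), but was called lower without glucose with library totals (-0.17, edgeR adjusted p = 0.0310). Lysosomal genes counted 23 higher and 17 lower of 46, which became 17 and 22 with library totals, and their median of 0.16 turned to -0.075.

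Cell division and the cytoskeleton separated the starvations further. Of 30 mitotic genes 0 were higher and 29 lower without glucose, and of 34 replication genes 3 and 26. Plk1 was at 98.5 and 99.7 CPM and Aurka at 187 and 188 CPM without amino acids, both well above the glucose-starved libraries (-1.83 and -2.64, SE 0.066 and 0.064). Actin genes counted 22 higher and 1 lower of 25, matrix genes 27 and 2 of 33, and cholesterol genes 25 and 0 of 25. Col1a2, lower than the control in both starvations, was at 53.8 and 52.9 CPM without amino acids and thus higher without glucose (2.80, SE 0.057). Vim, the filament protein vimentin of mesenchymal cells, was at 2360.3 and 2132 CPM in the controls, 2173 and 2255 CPM without glucose and 101 and 97.9 CPM without amino acids (4.48 between the starvations, SE 0.064). Hspa8 was at 476 and 481 CPM without amino acids (3.69, SE 0.056), with 21 of 24 heat shock genes higher without glucose and 3 lower. NRF2 targets, split against the control, counted 20 higher and 1 lower of 24, and glycolysis 19 and 1 of 23, with Aldoa at 247 and 245 CPM without amino acids (1.51, SE 0.058).

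**Figure D4:**
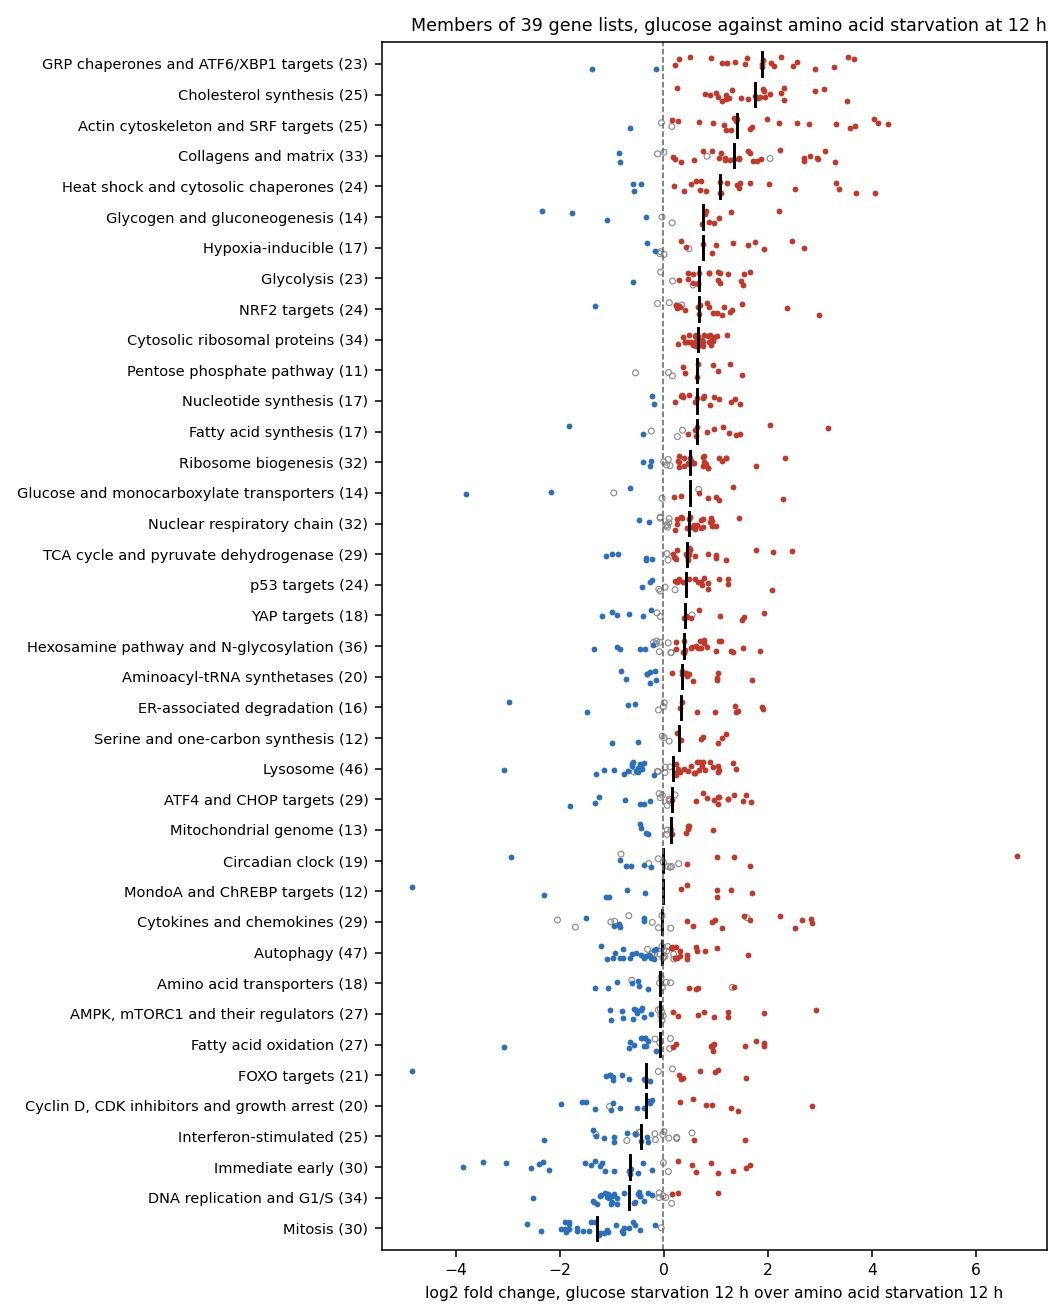
Log2 fold change of glucose over amino acid starvation at 12 h for the tested members of 39 gene lists (number tested in brackets), with red points called higher without glucose, blue points called lower and open grey points not called. Black bars are list medians and the dashed line is the median of all genes tested (-0.028). ER chaperones and cholesterol synthesis lie highest, with medians of 1.88 and 1.74, and mitosis and DNA replication lowest, at -1.29 and -0.68.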

How the data were processed

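The values were counts of reads per transcript line in 1 table deposited by the authors, not normalised as far as the values show. Per the submitters' processing notes STAR, an aligner, bedtools and the build GRCm39 were used. Versions, annotation and the use of strand are not given in the sources used here. Lines naming no gene (58 of 67457) held 0% of the reads and were left out. Of 40800 genes 13432 (32.9%) had several lines, of which the one with the most reads over the 14 libraries was used. The libraries then held 35270767 to 55349659 reads each. No genome of the files' build was used, so promoters and exon overlaps come from GRCm38 by gene symbol.

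The analysis used edgeR 4.0.16 under R 4.3.3: filterByExpr left 17696 genes, TMM scaled the libraries, and a robust quasi-likelihood model of 7 group means was fitted to the 14 libraries, with 7 residual degrees of freedom and a biological coefficient of variation of 5.78%. The 4 two-sided comparisons were glucose starvation at 12 h against the control, against 6 h, against 3 h and against amino acid starvation at 12 h, each adjusted by Benjamini-Hochberg over all genes tested. A fold change is fitted with a prior count of 0.125. SE is the size of the log2 fold change fitted without that prior count, divided by the square root of the F statistic. On simulated counts of 16485 genes for the first comparison 55.2% of 67 genes changed by a log2 of 0.5, 92.5% of 67 changed by 1 and 100% of 66 changed by 2 were recovered, and 5 of 170 calls were false. No other genes were changed there, and genes of low control level were not among them. In the data 58.4% were called, so these shares need not carry over.

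The 39 gene lists (963 entries), the 8 marker lists and the members were chosen with earlier results of these data known. Named genes were a panel of 30, the 12 largest changes in each direction against the control (4 in each other comparison) whose log2 CPM averaged 3 or more and whose libraries do not overlap, and, of each list, at most 4 called members, those of lowest p. Some genes these rules name are not reported here. Pdia6, Dnajc3, Creld2 and Chac1 are shown for their promoters only and were chosen after their values were seen. Alternatives were DESeq2 1.42.0, other scalings, filters and transcript lines, fewer libraries and a replicate block.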

Additional observations from a re-analysis of the deposited data

Results flagged for a closer look

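Of the 30 panel genes, 8 moved in opposite directions in the starvations at 12 h. Both glucose-starved libraries lay on one side of the controls and both amino acid-starved libraries on the other. The difference between the starvations was itself called by edgeR, as it was for 64.1% of all genes tested. This rule was applied to the panel only. The share of all genes that meet it was not counted, so 8 of 30 cannot be set against it. Hspa5 and Hsp90b1, the ER chaperones, were higher without glucose by 2.11 (SE 0.054) and 2.90 (SE 0.058, edgeR adjusted p = 7.24e-26), with Hsp90b1 at 651 and 696 CPM without amino acids against 1742 and 1869 CPM in the controls. Xbp1 differed by 1.91 (SE 0.072), at 20.3 and 24.6 CPM without amino acids. Txnip went the other way, -4.85 (SE 0.15, edgeR adjusted p = 3.58e-21). The glucose transporter Slc2a1 differed by 1.32 (SE 0.068), the hexokinase Hk2 by 0.65 (SE 0.066), at 39.7 and 34.9 CPM without amino acids, and Gfpt1 of the hexosamine pathway by 1.09 (SE 0.061), at 75.0 and 72.2 CPM without amino acids. Acta2, smooth muscle actin, was at 46.4 and 47.1 CPM in the controls, 87.5 and 92.0 CPM without glucose and 14.1 and 12.2 CPM without amino acids, a difference of 2.78 (SE 0.074, edgeR adjusted p = 7.14e-23). The difference between the starvations does not use the control levels, while the side of the controls on which each starvation lies does. Its SE and adjusted p come from the fit to all 14 libraries, the controls included.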

How the results depend on the processing

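Over 14 alternatives per comparison 208 of 224 counts of calls stayed within 1.5 times their value. The 16 others all come from testing only 9727 genes, those found in the GRCm38 annotation that have no overlapping neighbour. List counts given above for members that overlap no other gene likewise leave out any symbol not found there. This alternative was chosen after seeing the data and tested fewer genes. Against the control it gave 5758 calls, 3002 higher and 2756 lower, with 1811 of at least 2-fold. Against 6 h it gave 4786, 2568, 2218 and 1028, against 3 h 5724, 3181, 2543 and 1842, and against amino acid starvation 6327, 3062, 3265 and 2424. Of 190 gene results 182 kept their direction and their side of the threshold under every alternative run. Those that reversed were small: when libraries were scaled by their totals alone Ulk1 against the control was at -0.074, and Atf4, Atg13 and Sqstm1 against amino acid starvation were at -0.14, -0.17 and -0.095. Leaving out 1 of the 4 libraries at a time moved Arrdc4 between -0.18 and 0.053 and Vim between -0.092 and 0.054, positive for both without the first control library (0.045 and 0.054) or without the first library at 12 h (0.053 and 0.0047). The cause was not tested. Library totals also moved the share of calls that were higher from 52.1% to 43.1% against the control and from 49.2% to 34.5% against amino acid starvation. Leaving out 1 library gave 8981 to 9335 calls against the control, 6870 to 7097 against 6 h, 8841 to 9292 against 3 h and 10083 to 10229 against amino acid starvation. List medians move as well. Library totals moved those of all 39 lists by -0.11 to -0.10 against the control, so that 4 turned sign and 14 others moved by over 1.5 times, and by about -0.24 against amino acid starvation (3 and 26). Without overlapping genes, which leaves fewer members, 7 list medians turned sign and 9 others moved by over 1.5 times against the control, and 3 and 9 against amino acid starvation. DESeq2 called 9995 genes against the control.

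The labels give the groups the same replicate numbers, but nothing says that these mark shared cultures, and deviations of same-numbered libraries were correlated at only -0.035 to 0.054. With the replicate number as a block 10473 genes were called against the control, 8619 against 6 h, 10356 against 3 h and 11451 against amino acid starvation. In simulated counts with 2 libraries a group, 55.2% of genes changed by a log2 of 0.5 were recovered. Far fewer genes were changed there than were called in the data, so this share need not carry over. A small change that was not called is not shown to be absent.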
